A study of Mus musculus with 26 samples.

Results

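The Slc25 genes encode the mitochondrial solute carriers, a large family of transporters of the mitochondrial inner membrane. Members were taken as every gene whose symbol is Slc25a followed by a number, which gave 47 of the 55487 genes in the count table. The choice used the symbol alone and no measured value. Each carrier is thought to alternate between an opening to the cytosol and an opening to the matrix, and so exchanges or imports metabolites, nucleotides, cofactors and ions that cannot cross the inner membrane on their own. In enterocytes, the absorptive cells of the small intestine (SI), these carriers link matrix metabolism to ATP supply, to citrulline synthesis and to the export of citrate for lipid synthesis.

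RNA was measured with QuantSeq 3′ mRNA sequencing, which reads the 3′ end of transcripts, in the proximal SI of mice 8 to 12 weeks old. Knockout mice carried loxP-flanked alleles of the targeted gene and the Villin-creERT2 transgene, which expresses a tamoxifen-dependent Cre recombinase in intestinal epithelial cells (IECs), and control mice carried the loxP-flanked alleles alone. Both genotypes received tamoxifen on 5 consecutive days and were killed 3 or 7 days after the last injection, with 7 mice per genotype at 3 days and 6 at 7 days. The samples were pieces of whole tissue, so that fewer cells of a type and less RNA per cell cannot be told apart in any value given here.

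The depth was 3720168 to 6338016 assigned reads per library (26 libraries, with levels given as CPM, counts scaled to the total of the library), so that 1 CPM rests on 3.72 to 6.34 reads. Levels of cell type markers differed between genotypes at 7 days as well as between days in controls. The summed level of 10 enterocyte markers was 3588 to 5389 CPM in knockout mice against 15932 to 30805 in controls at 7 days, and 750 to 14320 against 925 to 13001 at 3 days, with none of the 10 at 0 in any group. Of these, 9 of 10 were lower at 7 days, as were 6 of 6 markers of crypt stem and cycling cells (122 to 206 CPM against 664 to 825). Transcripts of neighbouring organs were uneven between libraries. Stomach markers summed to 10482 CPM in knockout mouse 1 at 3 days, 25956 in control mouse 5 at 3 days and 12023 in control mouse 2 at 7 days. In knockout mouse 1 the sum was mostly Gkn3 (9849 CPM) and Pgc (621 CPM). The markers Gkn1, Gkn2 and Tff1 were at most 0.370, 1.68 and 8.30 CPM in 3-day knockout mice. In control mouse 5 they were at 795, 851 and 2185 CPM. Pancreatic acinar markers summed to between 9659 and 26007 CPM in 4 libraries (knockout 2, control 2 and control 3 at 3 days, knockout 4 at 7 days).

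At 3 days a single Slc25 gene passed the test. Slc25a33, a carrier that imports pyrimidine nucleotides into mitochondria, was higher in knockout mice, and none was lower (edgeR's quasi-likelihood test with Benjamini-Hochberg adjustment over all genes tested, used throughout). The background was 1.11% of 20760 genes higher and 0.323% lower, and 41 Slc25 genes were tested. Slc25a33 lay at 6.31, 15.9 and 19.3 CPM (lowest, median and highest of 7) in knockout mice and at 5.04, 6.37 and 9.49 in controls. In 6 of 7 knockout mice the level was above every control, and knockout mouse 1 lay within the control range. That library held the most stomach and smooth muscle transcripts of its group (4491 CPM of smooth muscle markers) and the fewest of the enterocyte markers (750 CPM, against 4652 to 14320 in the other knockout mice), and the part of these in its level was not tested. The rise was 1.18 ± 0.23 on the log2 scale (SE, adjusted p = 0.0124). It lost the call with adjusted p = 0.0558 when the 4 libraries rich in acinar transcripts were left out, although the log2 fold change was then 1.30, and with adjusted p = 0.0584 and a log2 fold change of 0.90 when acinar and stomach marker levels were covariates. Without knockout mouse 1 there were 4 calls, all higher, namely Slc25a33 (1.32), Slc25a39 (0.62), Slc25a3 (0.79) and Slc25a34 (0.96). With all 7 knockout mice those other three had log2 fold changes of 0.51, 0.66 and 0.77 with adjusted p of 0.166, 0.231 and 0.334. Calls over all genes also increased without knockout mouse 1. Of 20975 genes tested, 584 were then higher and 195 lower, against 230 and 67 of 20760 with all mice. No Slc25 gene had groups that did not overlap at 3 days (0.848% of all genes tested). The median log2 fold change was 0.05 over the 41 members and −0.03 over all genes tested.

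At 7 days 21 of 42 tested Slc25 genes passed the test, 11 higher and 10 lower in knockout mice. Across all 20259 genes tested, 19.7% were higher and 18.8% lower, against 26.2% and 23.8% of the Slc25 genes, so the family moved in both directions at a share near that of the transcriptome as a whole. The levels of 11 members did not overlap between genotypes, 6 of them higher and 5 lower in knockout mice, which was 26.2% of those tested against 22.6% of all genes. The median log2 fold change was −0.10 over the members and −0.02 over all genes. The largest changes were in Slc25a33 and Slc25a39, which were higher, and Slc25a45, which was lower. Of the 21 calls, 15 were smaller than 2-fold. The summed level of all 47 genes was 3086, 3476 and 3735 CPM (lowest, median and highest of 6) in knockout mice and 2517, 2936 and 3365 in controls, so that the ranges overlapped.

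**Figure D1:**
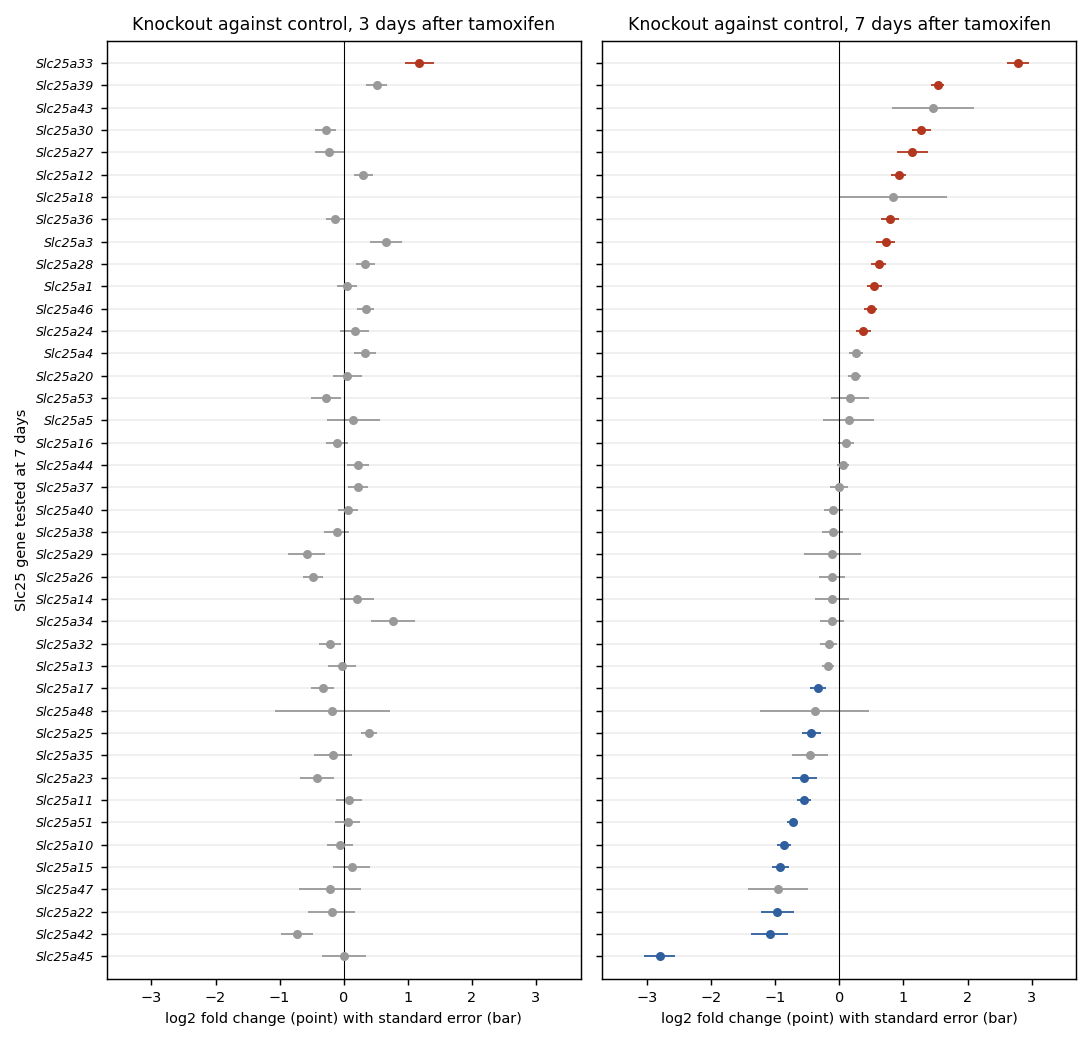
Log2 fold change of the Slc25 genes tested at 7 days (rows, 41 of 42 shown), knockout against control, at 3 days (left) and 7 days (right), with points for the estimate, bars for its standard error, red for a rise and blue for a fall past an adjusted p of 0.05, and grey for neither. At 3 days 1 point is coloured, Slc25a33, whereas at 7 days 11 are red and 10 are blue.

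Both pyrimidine nucleotide carriers rose at 7 days. Slc25a33 (chr4:149744036-149774277, minus strand, GRCm38) lay at 33.3, 43.6 and 50.7 CPM in knockout mice and at 4.33, 5.95 and 8.47 in controls. Every knockout mouse was thus far above every control, with a log2 fold change of 2.79 ± 0.17 (adjusted p = 3.45e-10). Slc25a36, its closest relative in the family, stood at 105, 124 and 168 CPM against 52.8, 78.9 and 88.7, again without overlap (0.79 ± 0.14, adjusted p = 0.000184). Both genes kept an adjusted p under 0.05 in all 21 alternative fits, and Slc25a36 changed by less than 2-fold. Exons of Slc25a33 share bases with Gm13068 on the other strand, and the counting options given by the study did not set a strand. Reads on the shared bases therefore cannot be told apart between these genes, and how many there were was not counted.

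Because both carriers of this pair rose, their RefSeq promoter windows, 250 bases before to 50 after the start, were read from GRCm38.p6. Windows of 36 of the 47 genes were searched. Windows on the chromosome that holds Slc25a46, which was higher at 7 days, and Slc25a2 were left out before the search. The counts over all genes leave out that chromosome too. The C/EBP-ATF element TGATGNAA, searched on both strands, was in none of the 36 (4.51% of all 27025 genes with a window held it). The E-box CACGTG, which reads the same on both strands, was in 7 of 36 (19.4%, against 8.09% of all genes), that is in 3 of 9 genes higher at 7 days, 1 of 9 lower, 2 of 15 that did not pass (Slc25a13 and Slc25a14) and 1 that was not tested (Slc25a31). The NRF1 core TGCGCATGC was in 1 of 36 and the ERR element TCAAGGTCA in none, against 1.72% and 0.466% of all genes. The 4 stretches around an E-box in a gene called at 7 days are shown so that its position and flanks can be compared, 5′ to 3′ on the gene's own strand, with the E-box in capitals.
Slc25a33: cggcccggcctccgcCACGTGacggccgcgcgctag
Slc25a36: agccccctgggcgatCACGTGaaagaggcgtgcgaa
Slc25a1: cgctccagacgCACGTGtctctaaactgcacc
Slc25a15: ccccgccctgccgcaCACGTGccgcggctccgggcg
Counted from the RefSeq start, the E-box began at base −8 in Slc25a33 (chr4:149774255-149774290), at −187 in Slc25a36 (chr9:97111208-97111243), at −239 in Slc25a1 (chr16:17928438-17928469) and at −77 in Slc25a15 (chr8:22398334-22398369), all on the minus strand. GENCODE M21 starts differ. They lie at 149774277 for Slc25a33 and 22398597 for Slc25a15, so that the E-boxes of both fall within the gene by that annotation. Slc25a33, Slc25a36 and Slc25a1 were higher at 7 days and Slc25a15 was lower, so the match occurred in genes that moved either way. A match of letters does not show that a factor binds there.

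Slc25a39, which is needed for the import of glutathione into mitochondria, was the member with the largest change after Slc25a33 among those that rose. It lay at 362, 454 and 506 CPM in knockout mice and at 149, 153 and 181 in controls at 7 days. All control mice lay below the lowest knockout mouse, with control mouse 5 apart from the other controls. The log2 fold change was 1.53 ± 0.11 (adjusted p = 1.75e-09). Its relative Slc25a40 lay at 7.57 to 9.64 CPM in knockout mice and 6.93 to 11.9 in controls and did not pass (−0.10 ± 0.14, adjusted p = 0.652).

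Uncoupling proteins let protons back into the matrix in brown fat. Of the 3 members related to them, 2 were higher in knockout mice at 7 days, where 19.7% of all genes tested were higher. Ucp2, an uncoupling protein whose symbol the rule does not take, was lower at 7 days (−0.93 ± 0.15, adjusted p = 4.40e-05). Slc25a30 lay at 22.5, 24.9 and 29.0 CPM in knockout mice and at 5.97, 11.1 and 14.1 in controls at 7 days, with no overlap (1.28 ± 0.15, adjusted p = 1.99e-06). Slc25a27 stood at 4.50, 9.45 and 13.8 CPM against 3.04, 4.41 and 5.77 (1.14 ± 0.24, adjusted p = 0.000804), and knockout mouse 6 alone lay within the control range. Its medians at 3 days were 9.74 CPM in knockout mice and 16.5 in controls. The control median was thus lower at 7 days, while that of knockout mice was nearly the same on both days. At 3 days the log2 fold changes of Slc25a30 and Slc25a27 were −0.28 ± 0.16 and −0.22 ± 0.23, neither past the threshold (adjusted p = 0.480 and 0.736). Slc25a14 had few reads (2.22 to 6.66 CPM in knockout mice and 3.79 to 5.86 in controls) and did not pass at 7 days (−0.12 ± 0.27, adjusted p = 0.780).

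Slc25a12 (aralar) and Slc25a13 (citrin) exchange aspartate for glutamate and serve the malate-aspartate shuttle, which moves reducing equivalents into the matrix. Slc25a12 lay at 40.4, 50.7 and 55.1 CPM in knockout mice and at 20.6, 27.7 and 29.9 in controls at 7 days, with every knockout mouse above every control (0.92 ± 0.12, adjusted p = 3.58e-06). Slc25a13 lay at 44.4 to 54.0 CPM against 39.7 to 62.1 and did not pass (−0.18 ± 0.10, adjusted p = 0.163). The glutamate carrier Slc25a22 was lower, at 22.2, 27.6 and 35.7 CPM in knockout mice and 28.3, 45.0 and 108 in controls (−0.97 ± 0.26, adjusted p = 0.00642). Its groups overlapped, and control mouse 3 stood above the other controls. Without that mouse the log2 fold change was −0.60 (adjusted p = 0.0416). The second glutamate carrier, Slc25a18, had at most 5.5 reads in any library.

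Slc25a3 carries phosphate, a substrate of ATP synthase, and copper for cytochrome c oxidase. It was present at 1050, 1360.5 and 1602 CPM in knockout mice and 577, 833 and 1107 in controls at 7 days, and rose by 0.72 ± 0.15 on the log2 scale (adjusted p = 0.000817). Only the lowest knockout mouse and the highest control overlapped. The ADP/ATP exchangers, which deliver ATP to the cytosol, did not pass the test. Slc25a4 lay at 52.4 to 78.5 CPM against 45.3 to 61.1 (0.26 ± 0.10, adjusted p = 0.0581). Slc25a5 varied widely between mice of one group, from 57.8 to 182 CPM in knockout mice and 36.0 to 224 in controls (0.14 ± 0.40, adjusted p = 0.824). A processed pseudogene, Slc25a5-ps, is annotated for it, and whether reads of one were counted for the other was not tested.

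The carriers of citric acid cycle intermediates split. Slc25a1, which exports citrate to the cytosol where it supplies acetyl-CoA for fatty acid and sterol synthesis, lay at 113, 121 and 137 CPM in knockout mice and 71.5, 79.5 and 120 in controls (0.54 ± 0.12, adjusted p = 0.000958), and control mouse 2 alone reached into the knockout range. Slc25a10, the dicarboxylate carrier, was lower in every knockout mouse than in any control (32.7, 37.5 and 42.0 CPM against 58.9, 69.7 and 82.0, −0.86 ± 0.11, adjusted p = 3.47e-06). Slc25a11, the oxoglutarate-malate carrier of the malate-aspartate shuttle, was lower too, at 54.9, 62.3 and 75.1 CPM against 84.8, 91.3 and 106, without overlap (−0.55 ± 0.11, adjusted p = 0.000344). Slc25a10 and Slc25a11 share exon bases with Gm11788 and Rnf167 on the other strand. The same holds for Slc25a23 with Gm17168, Slc25a25 with Naif1 and Slc25a46 with B930094E09Rik, while Slc25a51 shares exon bases with Gm25692 on its own strand.

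Slc25a15, the ornithine carrier that serves citrulline synthesis in the intestine, fell. It lay at 141, 152 and 175 CPM in knockout mice and 220, 299 and 391 in controls at 7 days, with no overlap (−0.93 ± 0.13, adjusted p = 1.69e-05). Slc25a29, a carrier of basic amino acids, was near 1 CPM in both groups (0.350 to 1.97 against 0.631 to 2.17) and did not pass (−0.11 ± 0.44, adjusted p = 0.877). Neither Slc25a38, which brings glycine into mitochondria for haem synthesis, nor Slc25a44, which imports branched-chain amino acids, passed at 7 days (−0.11 ± 0.17 and 0.06 ± 0.09, adjusted p = 0.668 and 0.649).

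Among 6 cofactor carriers 3 were lower and none higher, where 18.8% of all genes tested were lower, and 1 of these calls, Slc25a17, depended on the setting. Slc25a51, which imports NAD, lay at 73.9, 85.9 and 88.7 CPM in knockout mice and 129, 141 and 155 in controls, without overlap (−0.73 ± 0.09, adjusted p = 2.92e-06). Slc25a42, a coenzyme A carrier, had few reads, at 1.75, 2.58 and 4.17 CPM against 3.08, 5.56 and 10.4 (−1.09 ± 0.29, adjusted p = 0.00615), and its groups overlapped. Slc25a17, which acts in peroxisomes and not in mitochondria, was lower by a small margin (10.7 to 13.4 CPM against 10.98 to 18.8, −0.33 ± 0.13, adjusted p = 0.0452), a call lost under 11 of 21 alternatives. Slc25a16 and Slc25a32, carriers of coenzyme A and folate, had log2 fold changes of 0.11 and −0.17 that did not pass (adjusted p = 0.553 and 0.356).

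The ATP-Mg/phosphate carriers, which respond to cytosolic calcium and set the adenine nucleotide pool of the matrix, moved in both directions. Slc25a24 was higher, at 191, 213 and 242 CPM in knockout mice and 143, 163 and 201 in controls (0.37 ± 0.11, adjusted p = 0.0130). Slc25a25 was lower, at 9.20, 13.2 and 14.98 CPM against 13.9, 17.1 and 20.2 (−0.44 ± 0.14, adjusted p = 0.0215). Slc25a23 was lower, at 6.48, 9.15 and 11.4 CPM against 6.55, 14.05 and 16.4 (−0.55 ± 0.19, adjusted p = 0.0300). The 2 groups overlapped for all 3 genes. These changes were small, and the calls were lost with single mice left out. Slc25a24 lost the call without knockout mouse 6 or control mouse 4, and Slc25a25 without knockout mouse 1. Slc25a23 lost it without knockout mouse 1 or 6 or control mouse 6. With all 26 libraries in 1 fit Slc25a24 and Slc25a23 also lost the call, as did Slc25a23 with acinar and stomach marker levels as covariates. Over all alternatives adjusted p reached 0.131 for Slc25a24, 0.0512 for Slc25a25 and 0.136 for Slc25a23.

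Slc25a28 (mitoferrin 2) and Slc25a37 (mitoferrin 1) import iron. Slc25a28 was higher at 50.4, 61.6 and 84.3 CPM in knockout mice against 36.0, 40.7 and 52.7 in controls, with a slight overlap (0.61 ± 0.12, adjusted p = 0.000595). Slc25a37 was at 40.0 to 50.5 CPM against 33.2 to 63.8 and did not pass (−0.01 ± 0.14, adjusted p = 0.956). Slc25a46, a member located in the outer membrane that takes part in mitochondrial fission and cristae shape, rose from 32.5, 38.1 and 46.9 CPM in controls to 49.8, 52.2 and 57.4 in knockout mice, without overlap (0.49 ± 0.10, adjusted p = 0.000881). Slc25a20, which brings acylcarnitines in for fatty acid oxidation, and Slc25a26, which imports S-adenosylmethionine, had log2 fold changes of 0.24 ± 0.10 and −0.11 ± 0.20 and did not pass (adjusted p = 0.0741 and 0.714).

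Slc25a45, one of the least studied members, had the largest fall. It lay at 15.5, 45.5 and 49.8 CPM in knockout mice and at 205, 268 and 356 in controls at 7 days. The highest knockout mouse was far below the lowest control, with a log2 fold change of −2.81 ± 0.24 (adjusted p = 3.64e-08) that ranged from −2.92 to −2.66 when each mouse was left out. At 3 days it lay at 37.4, 112 and 181 CPM in knockout mice and 48.9, 121 and 192 in controls, and the difference was 0.01 ± 0.34. Its gene (chr19:5877808-5885878, plus strand) shares no exon bases with another gene. The other 6 little studied members that were tested, Slc25a34, Slc25a35, Slc25a43, Slc25a47, Slc25a48 and Slc25a53, did not pass at 7 days. The enterocyte and crypt marker lists fell at 7 days along with the carriers that were lower, and their part in these results was not tested.

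**Figure D2:**
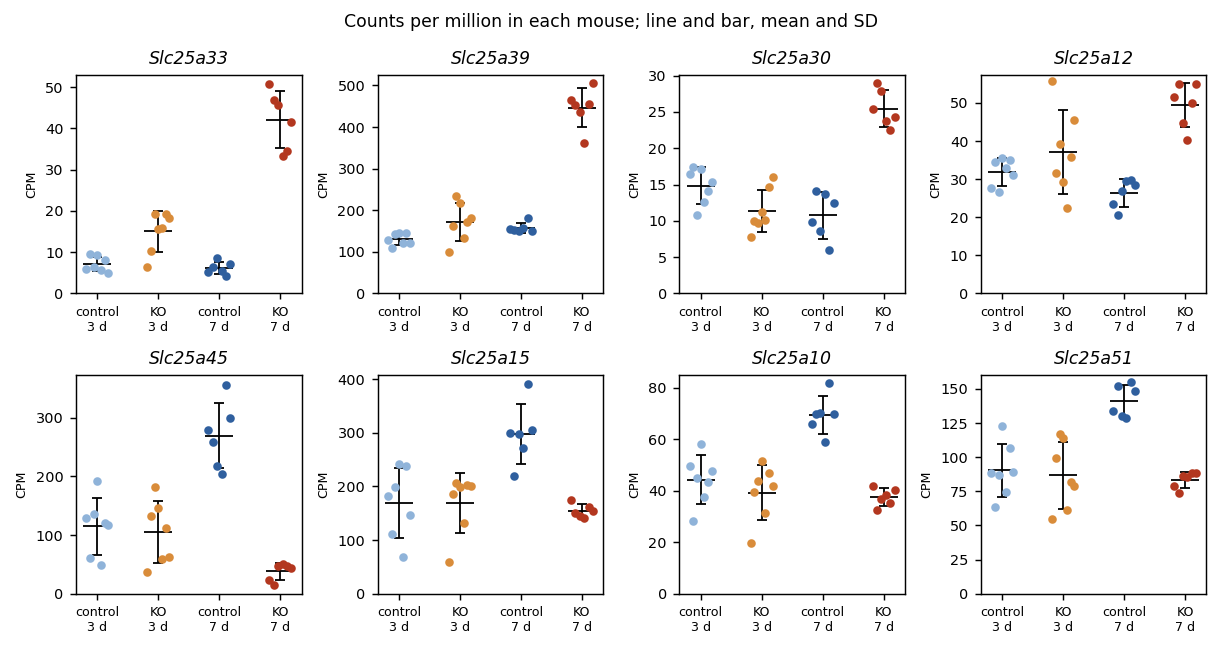
CPM (vertical axis, from 0) of 8 Slc25 genes in each mouse, 1 point per mouse, with the line and bar for the mean and SD of each of the 4 groups. In the upper row the 7-day knockout mice lie apart above the 7-day controls, and in the lower row they lie apart below them, while the 3-day groups overlap in all 8 genes.

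Where carriers of like substrate were set side by side, related genes did not always share a call at 7 days. In the pairs Slc25a12 and Slc25a13, Slc25a28 and Slc25a37, Slc25a39 and Slc25a40, and Slc25a14 and Slc25a30, a single member passed the test in the direction of a rise. In the pair Slc25a15 and Slc25a29 and the pair Slc25a18 and Slc25a22 a single member passed as a fall. Slc25a24 rose while Slc25a23 and Slc25a25 fell. The difference between the members of a pair was not itself tested, and Slc25a29, Slc25a18 and Slc25a14 had too few reads to show a small change.

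**Figure D3:**
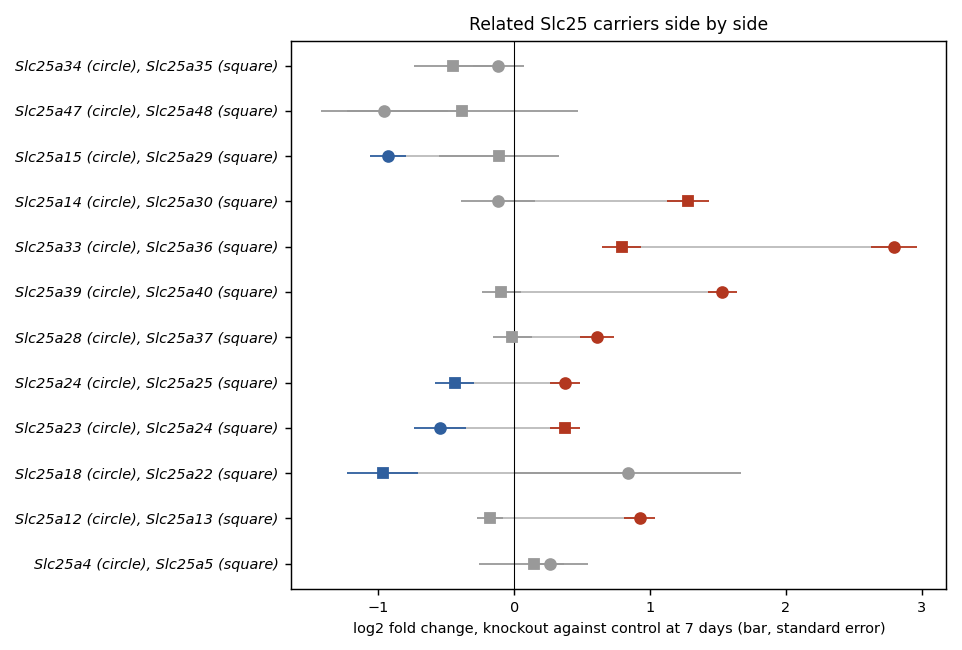
Log2 fold change at 7 days (horizontal axis, bar for the standard error) for 12 pairs of related carriers, a circle for the first named gene and a square for the other, coloured red or blue when past the threshold upward or downward and grey otherwise. Slc25a33 and Slc25a36 are the pair with both members in red, and the pairs of Slc25a24 with Slc25a23 and with Slc25a25 hold 1 red and 1 blue marker.

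The effect of the knockout differed between days for 11 of 40 Slc25 genes, by a test of the difference itself in a model of all 26 libraries. It was more positive at 7 days for 6 and more negative for 5, that is 15% and 12.5%, against 8.64% and 9.74% of 19604 genes. The 6 were Slc25a33 (1.64 ± 0.30 on the log2 scale), Slc25a30 (1.58 ± 0.23), Slc25a27 (1.38 ± 0.35), Slc25a39 (1.04 ± 0.21), Slc25a36 (0.94 ± 0.21) and Slc25a12 (0.63 ± 0.20), with adjusted p from 8.23e-06 to 0.0248. The 5 were Slc25a45 (−2.80 ± 0.47), Slc25a15 (−1.03 ± 0.35), Slc25a25 (−0.82 ± 0.19), Slc25a51 (−0.78 ± 0.23) and Slc25a10 (−0.79 ± 0.24), with adjusted p from 7.09e-05 to 0.0354. Slc25a25 went from 0.40 ± 0.13 at 3 days, not past the threshold (adjusted p = 0.149), to −0.44 ± 0.14 at 7 days. Without the 4 acinar-rich libraries the calls of Slc25a15, Slc25a10 and Slc25a51 were lost, with adjusted p of 0.131, 0.0934 and 0.0966. Slc25a15 also lost the call with 13 of the 26 mice left out in turn, and Slc25a12 without control mouse 1 or control mouse 2 at 7 days.

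**Figure D4:**
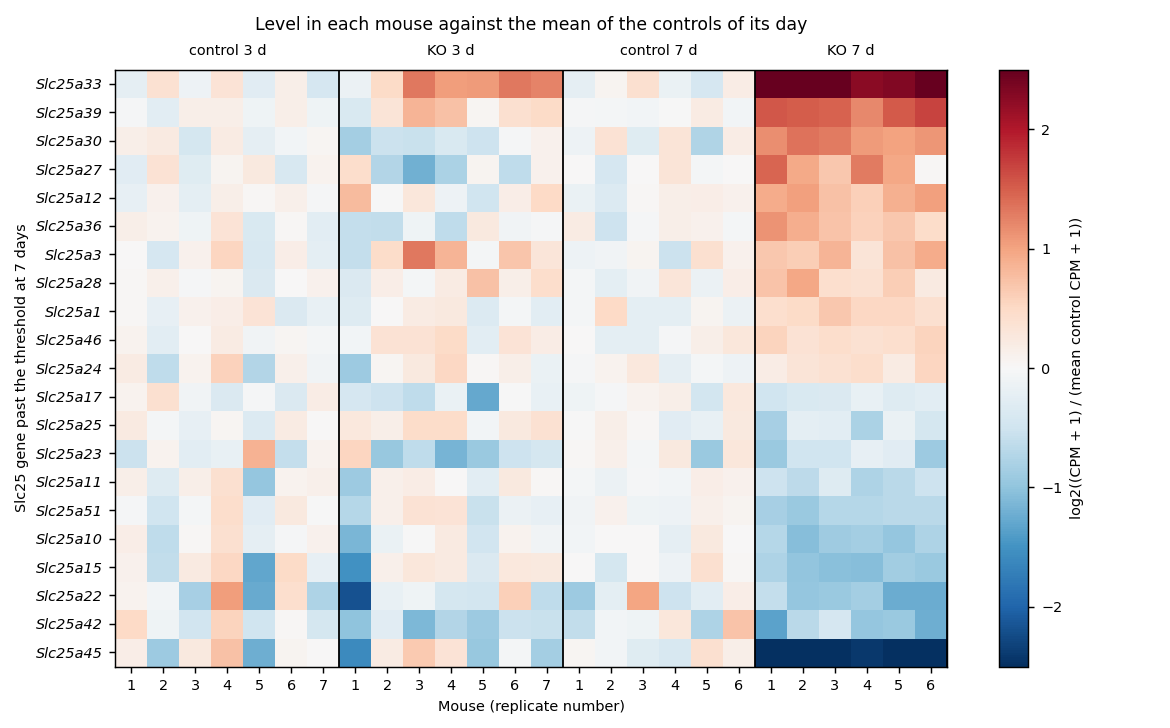
Level of the 21 Slc25 genes past the threshold at 7 days (rows) in each of 26 mice (columns, grouped by genotype and day), as log2 of CPM plus 1 over the mean of the controls of the same day plus 1, with the colour scale ending at ±2.5. Slc25a33 and Slc25a45 reach or come near the ends of the scale in 7-day knockout mice, and knockout mouse 1 and control mouse 5 at 3 days are blue for Slc25a15 and Slc25a45.

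The level of many carriers also differed between control mice of the 2 days. In controls 20 of 40 Slc25 genes were higher at 7 days than at 3 days and 6 were lower, or 50% and 15%, against 19% and 19.3% of all genes tested, with a median log2 difference of 0.38 over the members and −0.10 over all genes. All 10 enterocyte markers were higher in the 7-day controls and all 8 smooth muscle markers were lower. Slc25a45 was 1.56 ± 0.33 higher on the log2 scale, Slc25a15 1.15 ± 0.24, Slc25a51 0.97 ± 0.16, Slc25a10 0.97 ± 0.17, Slc25a11 0.84 ± 0.17 and Slc25a22 1.19 ± 0.35, with adjusted p from 5.48e-05 to 0.00885. The medians of Slc25a51 were 88.6 CPM in 3-day controls, 81.6 in 3-day knockout mice, 141 in 7-day controls and 85.9 in 7-day knockout mice, so that the 7-day controls stood apart from the other three groups. The medians of Slc25a10 in the same order were 44.9, 41.8, 69.7 and 37.5 CPM. Of the 10 members lower in knockout mice at 7 days, 7 were higher in controls at 7 days than at 3 days, and so were 6 of the 11 that were higher in knockout mice. The same overlap was not counted over all genes. Both comparisons use the same 7-day controls, so these counts cannot be read as particular to the carriers. Slc25a33, Slc25a12, Slc25a30 and Slc25a28 did not pass between control days (0.11 ± 0.23, 0.05 ± 0.14, −0.16 ± 0.16 and −0.05 ± 0.14, adjusted p = 0.728, 0.799, 0.454 and 0.822). The 6 that were lower in 7-day controls were Slc25a27 (−1.51 ± 0.26), Slc25a29 (−1.30 ± 0.35), Slc25a53 (−1.08 ± 0.27), Slc25a23 (−0.91 ± 0.26), Slc25a4 (−0.75 ± 0.16) and Slc25a26 (−0.58 ± 0.17). In this comparison the effect of time cannot be told apart from that of the piece of tissue dissected or of a run shared by mice of one day, and its 7-day controls are also those of the knockout comparison.

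A few carriers went with stomach transcripts. Slc25a48 lay at 7.57 CPM in knockout mouse 1 and 9.41 in control mouse 5 at 3 days and at 3.47 in control mouse 2 at 7 days, the 3 libraries with the most stomach transcripts of their groups, and at 1.76 CPM or less in the other libraries. Slc25a47 was at 7.57, 11.7 and 3.69 CPM in the same libraries, the highest of each group. These libraries also had the lowest sums of enterocyte markers of their groups (750, 925 and 15932 CPM). The part of either tissue difference in these levels was not tested. In control mouse 7 at 3 days, which held 2898 CPM of stomach markers, Slc25a47 was at 4.78 CPM and Slc25a48 at 1.06 CPM. Slc25a23 was highest in its group in knockout mouse 1 (45.5 CPM) and control mouse 5 (57.1 CPM) at 3 days, but not in control mouse 2 at 7 days (14.5 CPM, with the highest of that group at 16.4). Neither Slc25a47 nor Slc25a48 passed a test between genotypes, and Slc25a47, which did not pass between control days (−1.10 ± 0.49, adjusted p = 0.0789), passed without these 3 libraries (−0.93, adjusted p = 0.0465). Without these 3 libraries the difference of Slc25a23 between control days was −0.68, against −0.91 with them, and it passed in both (adjusted p = 0.00442 and 0.00599).

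Other proteins that move solutes across mitochondrial membranes also changed in both directions at 7 days. Of 32 such genes whose symbols the rule does not take, 30 were tested. At 7 days 7 of them rose and 7 fell, where 19.7% of all genes tested rose and 18.8% fell. At 3 days 1 rose. The carrier-like genes Ucp2, Mtch2 and Mtch1 were among those that fell. Ghitm, an inner membrane protein linked to calcium and proton exchange, lay at 685, 740 and 791 CPM in knockout mice and 141, 182 and 191 in controls at 7 days (2.13 ± 0.12, adjusted p = 1.08e-10), and was also higher at 3 days (1.27, adjusted p = 0.00683). Sfxn1, the mitochondrial serine transporter, was lower without overlap (188, 193 and 205 CPM against 408, 483 and 581, −1.34 ± 0.11, adjusted p = 1.55e-08), as was Sfxn2 (−1.46 ± 0.15), while Sfxn3 of the same family was higher (1.10 ± 0.19). Ucp2, an uncoupling protein of the same carrier fold whose symbol the rule does not take, was lower (−0.93 ± 0.15, adjusted p = 4.40e-05). Mtch2, a carrier-like protein of the outer membrane, fell by 0.90 on the log2 scale. Ucp1 and Ucp3 were not tested for low counts.

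Not every member could be measured. Slc25a2, Slc25a21, Slc25a31, Slc25a41 and Slc25a54 were left out at 7 days, since more than 50% of the mice of a group had no read. Slc25a41 and Slc25a54 had a read in 2 of 26 libraries, and none of these genes reached more than 4 reads in any library. Slc25a2 encodes a relative of the ornithine carrier, Slc25a31 an ADP/ATP exchanger of the germ line, and Slc25a21 an oxodicarboxylate carrier. Slc25a18 and Slc25a43 were tested at 7 days and not at 3 days, with at most 7 reads in any library, and neither passed (0.84 ± 0.83 and 1.46 ± 0.64, adjusted p = 0.472 and 0.0812). A count of 0 allows up to 3 reads, which at these depths is 0.473 to 0.806 CPM for counting error alone. The labels number the libraries within each group, and each library was taken as a separate mouse. The p-values set the difference between groups against the spread between mice.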

How the data were processed

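RNA of the proximal SI of 26 mice was sequenced with the QuantSeq 3′ FWD kit. The authors trimmed reads with Cutadapt (2.10 per the labels), aligned them to GRCm38 with Subread, and counted exon overlaps per gene with featureCounts 2.0.1 at a mapping quality of at least 30, sharing a read among the genes it overlapped. The deposited table holds these estimated counts, of which 95.0% are whole, and they were rounded here. The deposited CPM table was not used, and CPM was computed from the estimated counts. No strand option was stated. Spike-in rows were all 0 and were left out.

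Groups came from the labels. Each day was fitted over all genes with edgeR 4.0.16 (R 4.3.3), TMM factors and the quasi-likelihood F test, leaving out genes with no read in more than 50% of the mice of a group, as the study did. The difference between days and the control days came from a fit of all 26 libraries. The threshold was an adjusted p of 0.05, and errors of log2 fold changes are SE. The study used DESeq2, which was run as an alternative (1.42.0). Other alternatives were DESeq2 size factors, other filters, a 2-fold minimum, marker covariates, a replicate block, and each mouse or marked libraries left out. Depth was 3720168 to 6338016 reads per library. The fits were tested on simulated counts with the same spread for every gene and no tissue differences between libraries, unlike these data. Gene positions came from GENCODE M21.

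The Slc25 genes, substrate groups and marker lists were chosen with earlier results of these data known. Genes were named if past the threshold at 3 days, among the 10 largest rises or falls at 7 days, the member with the highest mean CPM of a substrate group, in a pair of related carriers, or not tested. Slc25a24, the smallest of 11 rises, was named as a member of such a pair, and Slc25a16, Slc25a32, Slc25a38, Slc25a43 and Slc25a53 were added to complete their groups after their values were seen. The values of the targeted gene and of 1 carrier are not reported here.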

Additional observations from a re-analysis of the deposited data

Results flagged for a closer look

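Among the 36 Slc25 genes that the naming rule took as called, as the highest of a substrate group or as related pairs, in 4 groups, 144 sets of 6 or 7 mice were checked for a mouse far from the others by Dixon's criterion, which chance meets in about 1 of 20 sets, and 16 values met it. Of these, 12 came from the 3 libraries with the most stomach transcripts of their group. Control mouse 2 at 7 days was highest for Slc25a1 (120 CPM), Slc25a29 (2.17), Slc25a35 (6.41), Slc25a47 (3.69) and Slc25a48 (3.47). Control mouse 5 at 3 days was highest for Slc25a23 (57.1 CPM), Slc25a47 (11.7) and Slc25a48 (9.41) and lowest for Slc25a28 (42.5). Knockout mouse 1 at 3 days was highest for Slc25a23 (45.5 CPM), Slc25a47 (7.57) and Slc25a48 (7.57). The other 4 were Slc25a13 in knockout mouse 4 at 7 days (54.0 CPM), and in 7-day controls Slc25a23 in mouse 5 (6.55 CPM), Slc25a34 in mouse 3 (35.9 CPM) and Slc25a39 in mouse 5 (181 CPM). The 3 libraries with the most stomach transcripts also had the lowest sums of enterocyte markers of their groups. The part of stomach tissue or of fewer enterocyte transcripts in these values was not tested.

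The genotype effect differed between 7 and 3 days by its own test for 11 of these genes. On the log2 scale, as the effect at 7 days minus that at 3 days, it was 1.64 for Slc25a33, 1.58 for Slc25a30, 1.38 for Slc25a27, 1.04 for Slc25a39, 0.94 for Slc25a36, 0.63 for Slc25a12, −2.80 for Slc25a45, −1.03 for Slc25a15, −0.82 for Slc25a25, −0.79 for Slc25a10 and −0.78 for Slc25a51.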

How the results depend on the processing

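No log2 fold change of a Slc25 gene changed sign under an alternative while past the threshold in either fit. The 21 calls at 7 days became 18 to 22 under DESeq2, DESeq2 size factors, other filters, all 26 libraries in 1 fit, marker covariates or marked libraries left out, and 19 to 22 with each mouse left out. The single call at 3 days became 2 with all 26 libraries in 1 fit, 2 without the 3 libraries marked by stomach transcripts or poor in enterocyte markers, 0 with marker covariates, 0 without the 4 acinar-rich libraries, and 1 to 4 with each mouse left out, 4 being reached without knockout mouse 1. The 11 calls of a difference between days became 10 to 13 with each mouse left out, 13 without the 3 libraries and 8 without the 4, and the 26 calls between control days became 24 to 27 with each mouse left out. Asking for at least a 2-fold change as well left 6 calls at 7 days, 6 of the difference between days and 10 between control days. The causes were not tested. Whether replicate numbers pair the mice could not be told. Correlations of same-numbered deviations ran from −0.26 to 0.29 and 4 of 13 numbers correlated best with their own, which cannot exclude a pairing. With a replicate block there were 0 calls at 3 days, 19 at 7 days and 9 of the difference between days. Over all genes, calls at 3 days were 297, against 808 with all 26 libraries in 1 fit, 786 by DESeq2, 774 without the 3 libraries, 105 without the 4 and 99 with the block. The alternatives that leave out marked libraries were chosen after seeing the data. Members under 1 CPM are limited by depth.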
